A study of Mus musculus with 4 samples.

Results

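The 10 genes described here encode the mouse MHC class I molecules and the machinery that loads peptides onto them. They were chosen by name, as the classical heavy chains H2-K1 and H2-D1, the light chain B2m, the nonclassical heavy chains H2-Q4, H2-Q7 and H2-T23, the peptide transporter Tap1 and Tap2, the loading factor Tapbp and the transcriptional activator Nlrc5. All 10 were found among the 54532 genes of the count table, each on a single row. They were read in CD11b+Ly6g+ myeloid-derived suppressor cells (MDSCs) sorted from lungs of C57BL/6 mice of 6 to 8 weeks, with 1 mRNA library per group, for which cells of 10 to 12 mice had been pooled. Every mouse, controls included, belonged to the pre-metastatic niche (PMN) model. It received medium conditioned by melanoma cells (MCM) into the peritoneum, 300 μl per mouse for 10 days, B16F10 melanoma cells by tail vein on day 7, and was killed on day 10. The Ctrl group had no peptide, and the other groups were given TP5, sFD17 or FR17 under the skin from day 3 at 40 μM/kg per day. TP5 is the free pentapeptide thymopentin, FR17 joins TP5 through an MMP2-cleavable linker to a backbone that self-assembles, and sFD17 is the same construct with the residues of the pentapeptide in scrambled order.

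A class I molecule consists of a heavy chain and beta-2 microglobulin, and it displays peptides of the cell's own proteins to CD8+ T cells and to receptors of NK cells. The peptides are cut in the cytosol by proteasomes, pumped into the endoplasmic reticulum by the TAP1-TAP2 transporter and fitted into the empty heavy chain with the help of tapasin, the product of Tapbp. Transcription of these genes is raised by interferons through IRF and STAT factors, by NF-kB, and by NLRC5, which acts through RFX, CREB/ATF and NF-Y proteins bound at the promoter. Neutrophils and the MDSCs that resemble them carry class I molecules on their surface like nearly all nucleated cells.

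Promoters of the members were read because most of these genes share regulatory elements. Of the 10 genes, 8 have an entry in the RefSeq promoter table of GRCm38.p6, and Tap2 and Nlrc5 were not matched. Both strands of the 250 bases before the annotated start were searched for kappaB (an NF-kB site, the first run of capitals in the H2-K1 stretch with any base as its eighth letter), TTTCNNTT (the core of an interferon-stimulated response element, ISRE), TGACG (the core of the CREB/ATF site, also part of the X2 box), CCAAT (the NF-Y site) and TTCNNNGAA (the interferon-gamma activated site, GAS). The 7 stretches below run from the first to the last match, with matched letters in capitals, on the strand of the gene and in the 5′ to 3′ direction. They are shown so that the elements of the heavy chain genes can be seen next to those of B2m, H2-T23 and Tap1.
H2-K1 (chr17:34000354-34000463, minus strand): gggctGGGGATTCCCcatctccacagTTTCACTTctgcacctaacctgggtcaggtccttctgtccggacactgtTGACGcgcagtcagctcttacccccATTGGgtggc
H2-D1 (chr17:35262918-35263050, plus strand): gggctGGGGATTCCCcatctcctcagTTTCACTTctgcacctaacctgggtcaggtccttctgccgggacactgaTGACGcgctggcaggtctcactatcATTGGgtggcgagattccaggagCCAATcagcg
H2-Q4 (chr17:35379438-35379571, plus strand): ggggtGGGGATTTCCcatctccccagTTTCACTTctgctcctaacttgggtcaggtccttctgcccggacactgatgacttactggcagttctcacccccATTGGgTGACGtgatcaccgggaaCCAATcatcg
H2-Q7 (chr17:35439017-35439148, plus strand): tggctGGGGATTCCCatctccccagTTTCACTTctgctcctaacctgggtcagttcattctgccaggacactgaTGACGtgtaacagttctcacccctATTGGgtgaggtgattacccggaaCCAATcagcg
H2-T23 (chr17:36032744-36032830, minus strand): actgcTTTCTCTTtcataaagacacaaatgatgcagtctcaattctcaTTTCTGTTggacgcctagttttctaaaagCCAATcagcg
B2m (chr2:122147545-122147643, plus strand): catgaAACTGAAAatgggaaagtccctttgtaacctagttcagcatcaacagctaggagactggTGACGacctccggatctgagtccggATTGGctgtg
Tap1 (chr17:34187329-34187479, plus strand): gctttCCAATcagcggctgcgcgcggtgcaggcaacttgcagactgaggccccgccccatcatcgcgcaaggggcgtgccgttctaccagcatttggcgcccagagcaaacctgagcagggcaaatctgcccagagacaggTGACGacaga

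The kappaB letters were found in H2-K1, H2-D1, H2-Q4 and H2-Q7, followed in each by the ISRE core. They occurred in 0.24% of all 32851 promoter windows of the table. These letters are the H2-K1 site with 1 base left open, so a match in H2-K1 was certain. The upstream stretch of H2-K1 was 54.8% identical to that of H2-D1, 52.4% to that of H2-Q4 and 66.1% to that of H2-Q7. The 0.24% is thus no test of enrichment in these genes. Other forms of the NF-kB site were not searched, so a gene without these letters may still hold one. The ISRE core also occurred in B2m and at 2 places in H2-T23, against 21.3% of all windows. TGACG was found in H2-K1, H2-D1, H2-Q4, H2-Q7, B2m and Tap1 (17.8% of all windows) and CCAAT in all 8 matched promoters (33.8%), while GAS was found in none of the 8 (7.02%). Tapbp held 2 CCAAT matches and no match to the other searched letters. The matches did not overlap one another. The upstream stretch of H2-D1 was 75.9% identical to that of H2-Q4 and 48.6% identical to that of B2m. The start of Tap1 lies 226 bases from that of Psmb9, an immunoproteasome subunit transcribed the other way, and their promoter windows share 275 of 300 bases.

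**Figure D1:**
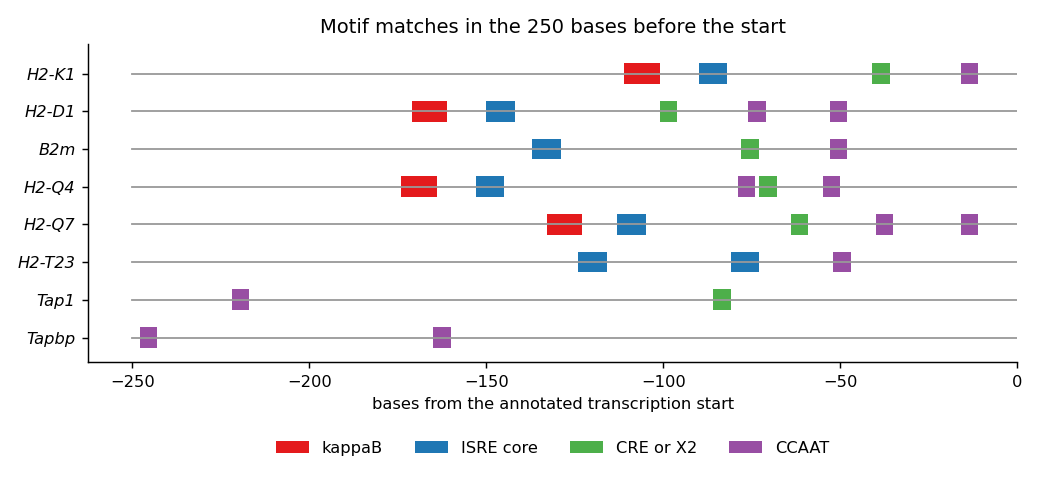
Positions of the motif matches in the 250 bases before the annotated start of the 8 matched genes, with the start at 0 on the x axis and one line per gene; boxes are kappaB, ISRE core, TGACG (CRE or X2) and CCAAT matches on either strand. The 4 heavy chain genes H2-K1, H2-D1, H2-Q4 and H2-Q7 hold the searched kappaB letters followed by the ISRE core. Neither was matched in Tap1 and Tapbp.

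The libraries held 17132880 counts for Ctrl, 17165184 for TP5, 15543071 for sFD17 and 19638228 for FR17, and no difference has a replicate check. Counts were scaled to CPM, counts divided by the scaled library total, with edgeR's TMM factors, which ranged from 0.849 in sFD17 to 1.17 in FR17. A gene is called here at a 2-fold change, and, separately, at an unadjusted p under 0.05 in edgeR's exact test, which compares 2 libraries and not 2 conditions. Intervals in brackets are 95% exact binomial intervals of a pair of counts and cover counting error only. S100a9, a neutrophil gene, was the row with the most counts in Ctrl (177455), and the 15 neutrophil markers took 3.59% to 4.01% of counts. The labelled cell type was not free of transcripts of other cells. The 9 MHC class II genes took 0.731% to 1.64%, and 14 macrophage markers took 1.00% in Ctrl, 0.783% in TP5, 0.324% in sFD17 and 1.48% in FR17. Relative to Ctrl and after scaling, the sums over the other marker lists stood between 0.268 times (platelets, sFD17) and 3.00 times (NK cells, FR17). The platelet marker Gp1bb was listed at 0 in every library. In bulk libraries, fewer cells of one type and less RNA per cell cannot be told apart.

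By counts in Ctrl, H2-D1 ranked 9, H2-K1 38 and B2m 50 among all genes, whereas Tap1 ranked 1135 and Nlrc5 2894. Together the 10 genes took 1.16% of counts in Ctrl, 0.916% in TP5, 1.20% in sFD17 and 1.22% in FR17. Per kilobase of exon the order in Ctrl was B2m (2760 CPM per kilobase), H2-D1 (2052), H2-K1 (979), H2-T23 (145), H2-Q4 (111), Tapbp (86.5), H2-Q7 (45.3), Tap1 (30.6), Tap2 (26.0) and Nlrc5 (7.09). B2m, H2-D1, H2-K1 and H2-T23 held the first 4 places and Nlrc5 the last in every library. The order of the others shifted: H2-Q7 stood above Tap1 and Tap2 in Ctrl, TP5 and FR17 and below both in sFD17. The light chain thus stood above either classical heavy chain per length in each library. All 10 genes passed the filter on low counts, the smallest value being the 861 counts of Nlrc5 in TP5.

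**Figure D2:**
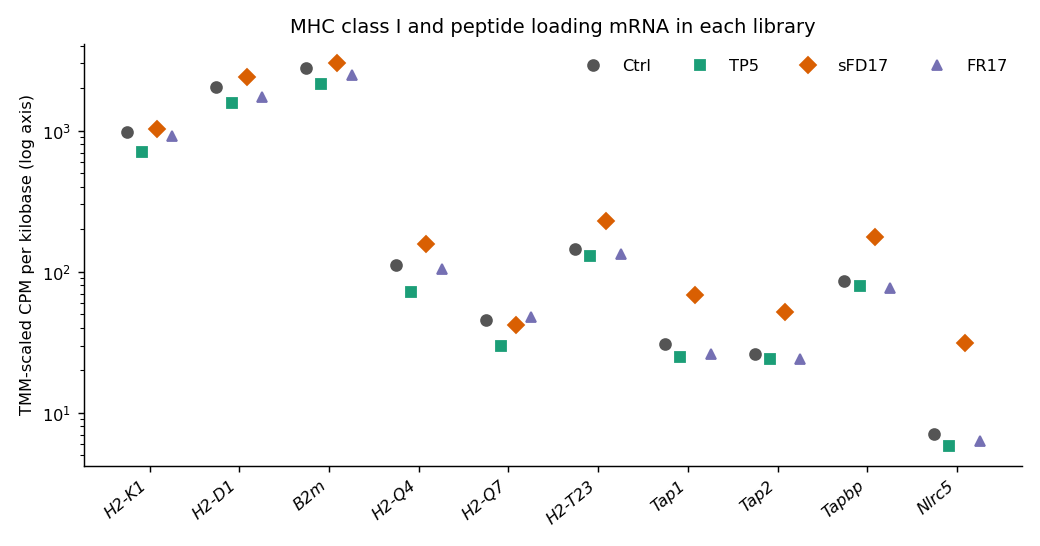
Level of each gene in the 4 libraries as TMM-scaled CPM per kilobase on a log axis, one point per library. In sFD17 the level of Nlrc5 is 31.5, against 5.78 to 7.09 in the other libraries, while the points of H2-K1, H2-D1 and B2m lie close together.

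In sFD17 the activator, the transporter and tapasin rose about 2-fold or more against Ctrl, whereas the classical heavy chains and the light chain stood within 1.17-fold. The nonclassical heavy chains stood at 1.59 (H2-T23), 1.41 (H2-Q4) and 0.926 (H2-Q7) times Ctrl. At least a 2-fold rise was found for 3 of the 10 genes (Nlrc5, Tap1 and Tapbp), where 5.32% of the 16367 tested genes were at least 2-fold higher and 11.8% moved that far in either direction. Scaled by library size alone, Nlrc5 was the 1 member left past 2-fold, with Tap1 at 0.95 and Tapbp at 0.82 on the log2 scale, while 12.9% of all tested genes were past it. The exact test called 3 genes higher (Nlrc5, Tap1 and Tap2), against 1.94% of tested genes called higher and 4.83% in either direction. The median log2 fold change of the 10 genes was 0.58, next to −0.03 for all tested genes. In TP5 and FR17 no member passed either call. The medians were −0.33 in TP5 and −0.13 in FR17, with 0.00 and 0.02 for all tested genes. The background of 2-fold calls was 8.17% in TP5 and 7.48% in FR17, and that of the exact test 1.98% and 1.86%. At 1.5-fold, 2 members were lower in TP5 (H2-Q4 and H2-Q7), where 11.8% of tested genes were that much lower and 20.8% moved that far. In sFD17 5 were higher, against 13.4% of tested genes higher and 29% in either direction. The 3 comparisons share the Ctrl library.

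**Figure D3:**
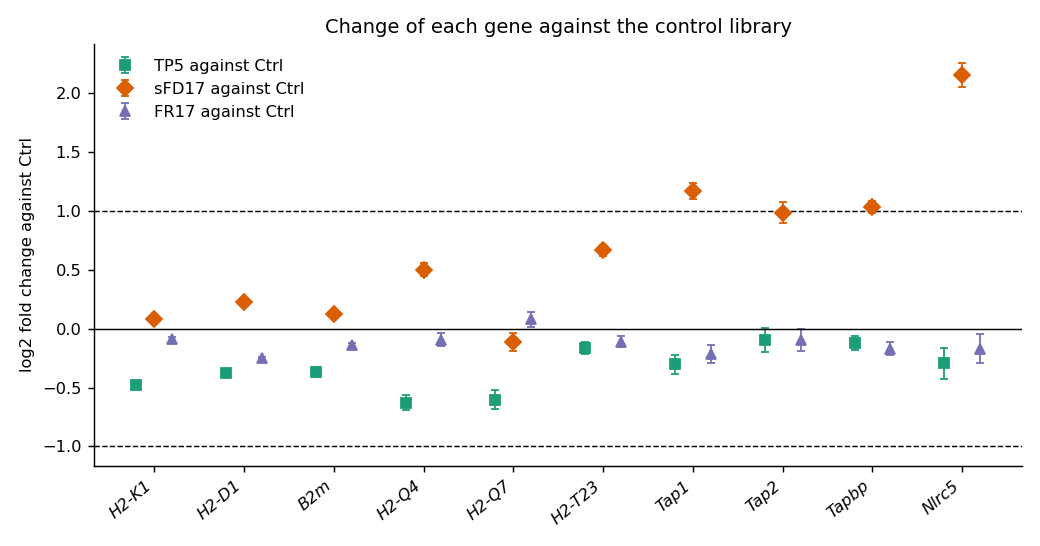
Log2 fold change of each gene against Ctrl for TP5, sFD17 and FR17; bars are 95% counting intervals and dashed lines mark a 2-fold change. Nlrc5, Tap1 and Tapbp lie above the upper line in sFD17, and all 20 values of TP5 and FR17 lie between the dashed lines.

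Nlrc5 (ENSMUSG00000074151, chromosome 8 from 94434356 to 94527272 on GRCm38), the transactivator of class I genes, had 1017 counts in Ctrl, 861 in TP5, 3530 in sFD17 and 1229 in FR17. After scaling this was 60.2, 49.1, 267 and 53.5 CPM. The sFD17 library stood alone at 4.44 times Ctrl, and the remaining libraries lay close to one another. The log2 fold change in sFD17 was 2.15 (2.05 to 2.25), with p = 2.3e-05 in edgeR's exact test, and it was the one member called after Benjamini-Hochberg adjustment over all tested genes. In TP5 it was −0.29 (−0.43 to −0.16) and in FR17 −0.17 (−0.29 to −0.05). The Wald test of DESeq2 called 0 of the 10 genes in sFD17, Nlrc5 included, against 1.17% of all genes tested. No 50-base word of the Nlrc5 transcripts, read in the direction of transcription as for the other members, occurs in transcripts of another gene. A gene on the opposite strand, 9330175E14Rik, shares 78 of its 8493 exon bases and had 44 to 136 counts.

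Tap1 and Tap2 encode the partner chains of the peptide pump. Tap1 (ENSMUSG00000037321, chromosome 17 from 34187553 to 34197225) had 2828 counts in Ctrl, 2378 in TP5, 4970 in sFD17 and 3309 in FR17. It was highest in sFD17 in spite of the lowest total there, with 377 CPM against 136 to 167 in the others. Its log2 fold change in sFD17 was 1.17 (1.10 to 1.24), with p = 0.025 in the exact test. Tap2 (ENSMUSG00000024339, chromosome 17 from 34203527 to 34216321) had 1658, 1608, 2566 and 2106 counts in the same order of libraries. The rise of Tap2 in sFD17 was just short of 2-fold, at 1.98 times Ctrl and a log2 fold change of 0.99 (0.90 to 1.08), and the exact test gave p = 0.047, a call that was lost with library size alone. In TP5 and FR17 the log2 fold changes were −0.30 and −0.22 for Tap1 and −0.10 and −0.10 for Tap2. Of the 50-base words, 0.442% of those of Tap1 and 0.655% of those of Tap2 were shared between the pair. Of the 5476 exon bases of Tap1, 212 lie in Psmb9 on the opposite strand, and whether counting used the strand is not given in the sources used here. Each of the pair was highest in sFD17.

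Tapbp (ENSMUSG00000024308, chromosome 17 from 33915899 to 33929288), which encodes tapasin, had 4816 counts in Ctrl, 4595 in TP5, 7710 in sFD17 and 5813 in FR17. This was 584 CPM in sFD17 against 253 to 285 CPM elsewhere, so that sFD17 again stood apart. The log2 fold change was 1.03 (0.98 to 1.09) in sFD17, past 2-fold, but the exact test left it just outside with p = 0.0508. It was −0.12 in TP5 and −0.17 in FR17. Of the 50-base words of Tapbp 2.87% occur in other genes, and 149 exon bases also belong to Zbtb22, which is transcribed in the same direction and had 657 to 829 counts. Another 904 lie opposite Gm19412, which was listed at 0. The related gene Tapbpl, whose product TAPBPR edits the bound peptide, had 410, 408, 860 and 651 counts in Ctrl, TP5, sFD17 and FR17. Tapbpl rose in sFD17 with a log2 fold change of 1.42 and p = 0.00191 in the exact test.

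The classical heavy chains showed small differences. H2-K1 (ENSMUSG00000061232, chromosome 17 from 33996017 to 34000333, minus strand) had 43121 counts in Ctrl, 32085 in TP5, 35617 in sFD17 and 54966 in FR17. Scaled, the values were 2553, 1829, 2699 and 2394 CPM, so that TP5 was the lowest library and the other 3 lay near one another. The log2 fold change was −0.48 (−0.50 to −0.46) in TP5, 0.08 (0.06 to 0.10) in sFD17 and −0.09 (−0.11 to −0.07) in FR17. H2-D1 (ENSMUSG00000073411, chromosome 17 from 35262730 to 35267499) had 89406, 71361, 81506 and 102059 counts, or 5293, 4068, 6176 and 4446 CPM. It was lowest in TP5 and highest in sFD17, with log2 fold changes of −0.38, 0.22 and −0.25 in TP5, sFD17 and FR17, none of them called. B2m (ENSMUSG00000060802, chromosome 2 from 122147686 to 122153083), the light chain common to all class I molecules, had 40099 counts in Ctrl, 32336 in TP5, 34172 in sFD17 and 49348 in FR17. Its log2 fold changes of −0.36, 0.13 and −0.14 in TP5, sFD17 and FR17 were close in size to those of H2-K1 and H2-D1. B2m shares no 50-base word with any other gene, and 9.63% of the words of H2-K1 and 12.8% of those of H2-D1 occur in other genes.

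The nonclassical heavy chains differed among themselves. H2-T23, which encodes Qa-1, the ligand of the NKG2A receptor, had 7089 counts in Ctrl, 6561 in TP5, 8783 in sFD17 and 8915 in FR17 (ENSMUSG00000067212, chromosome 17 from 36029773 to 36032855, minus strand). In CPM this was 420, 374, 665 and 388, highest in sFD17, where the log2 fold change of 0.67 (0.62 to 0.71) was past 1.5-fold but not 2-fold. H2-Q4 (ENSMUSG00000035929, chromosome 17 from 35379617 to 35385290), which encodes Qb-1, had 4885, 3282, 5398 and 6213 counts in Ctrl, TP5, sFD17 and FR17. Its log2 fold change was 0.50 (0.44 to 0.56) in sFD17 and −0.63 (−0.69 to −0.56) in TP5, the lowest member value in TP5. H2-Q7 (ENSMUSG00000060550, chromosome 17 from 35439155 to 35443773), one of the genes of the Qa-2 antigen, had 3263, 2231, 2360 and 4680 counts. This member alone had a value below Ctrl in sFD17, a log2 fold change of −0.11 (−0.19 to −0.03), and one above Ctrl in FR17, at 0.08 (0.01 to 0.14). In TP5 H2-Q7 stood at −0.60 (−0.68 to −0.53). Counts of these genes are less certain, as 26.4% of the 50-base words of H2-Q7, 21.8% of those of H2-Q4 and 13.6% of those of H2-T23 are found in other genes. The gene sharing most of them was H2-Q10 for H2-Q7 (14.0%), H2-Q6 for H2-Q4 (9.68%) and H2-T-ps for H2-T23 (6.05%). H2-Q10 had log2 fold changes of 0.18 in sFD17 and −0.95 in FR17. H2-Q6, which holds 6.31% of the words of H2-Q7, stood at 0.02 and 0.14. How reads were divided between these genes was not tested.

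Ratios between 2 genes within a library do not depend on the scaling. The number of H2-K1 counts per B2m count was 1.08 (1.06 to 1.09) in Ctrl, 0.992 (0.977 to 1.01) in TP5, 1.04 (1.03 to 1.06) in sFD17 and 1.11 (1.10 to 1.13) in FR17. For H2-D1 it was 2.23, 2.21, 2.39 and 2.07 in the same order, so that both heavy chains stayed between 0.923 and 1.07 times their Ctrl ratio to the light chain. The pump, tapasin and activator did not. Relative to B2m, Nlrc5 reached 4.07 times its Ctrl ratio in sFD17, Tap1 2.06 times, Tapbp 1.88 times and Tap2 1.82 times. In FR17 the same ratios were 0.982, 0.951, 0.981 and 1.03, and in TP5 1.05, 1.04, 1.18 and 1.20. H2-T23 stood at 1.45 times the Ctrl ratio in sFD17. H2-Q7 stood at 0.849 times in sFD17 and 1.17 times in FR17. Scaled by library size alone, H2-K1 and B2m turned from above to below Ctrl in sFD17, with log2 fold changes of −0.14 and −0.09, whereas Nlrc5, Tap1, Tap2, Tapbp, H2-T23, H2-Q4 and H2-D1 stayed above.

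**Figure D4:**
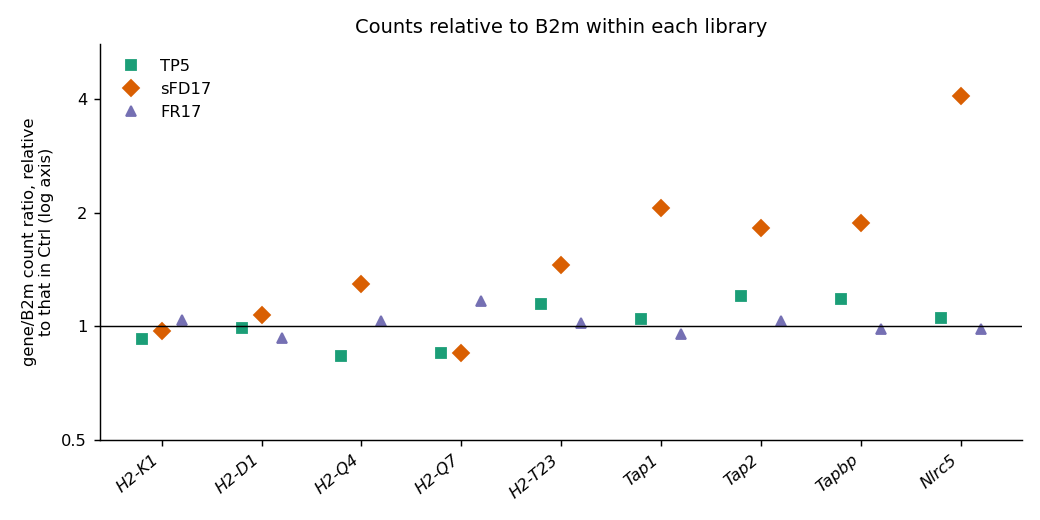
Counts of each gene divided by those of B2m in the same library and then by that ratio in Ctrl, on a log axis, for TP5, sFD17 and FR17; the line at 1 marks the Ctrl ratio. In sFD17 Nlrc5 reaches 4.07 and Tap1, Tapbp and Tap2 lie between 1.82 and 2.06, while H2-K1 and H2-D1 lie at 0.969 and 1.07.

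FR17 and sFD17 were given at the same dose and days and differ in the order of the residues in the pentapeptide. They were also compared directly, with Ctrl entering only the filter, the scaling and the dispersion. At least 2-fold lower in FR17 than in sFD17 were 4 members (Nlrc5, Tap1, Tapbp and Tap2), where 10.8% of tested genes were lower and 22.1% moved that far. The exact test called the same 4, against 7% of tested genes called lower and 12.7% in all. The log2 fold change was −2.32 for Nlrc5 (−2.42 to −2.23), −1.38 for Tap1 (−1.45 to −1.32), −1.21 for Tapbp (−1.26 to −1.16) and −1.08 for Tap2. Smaller differences were measured for H2-K1, at −0.17 (−0.19 to −0.15), for B2m, at −0.27 (−0.29 to −0.25), and for H2-Q7, at 0.19 (0.12 to 0.26). H2-T23 stood at −0.78, H2-Q4 at −0.60 and H2-D1 at −0.47, none of them called by either rule. At 1.5-fold, 6 of the 10 members were lower, against 21.3% of all tested genes. Scaled by library size alone, H2-K1 and B2m were higher in FR17 than in sFD17, by 0.29 and 0.19 on the log2 scale, where the median of all tested genes was 0.52. Under that scaling Tap1 stood at −0.92, Tapbp at −0.74 and Tap2 at −0.62, which left Nlrc5 as the 1 member past 2-fold, with 30.5% of all tested genes. The Wald test called 0 members and 6.95% of all tested genes. Against free TP5, sFD17 was at least 2-fold higher for 5 members (Nlrc5, Tap1, Tapbp, H2-Q4 and Tap2) where 6.74% of tested genes were higher and 12.4% moved that far. The exact test called the same 5, against 2.87% of tested genes called higher and 4.64% in all. Library size alone left Tap1 and Nlrc5, 2 members, past 2-fold (14.4% of all tested genes) and past the exact test (4.03%). Benjamini-Hochberg adjustment left 1 (0.513% of all tested genes) and the Wald test called 2 (0.849%). All 10 values were above TP5, as were 46.7% of all tested genes. Between FR17 and TP5, which both carry the unscrambled pentapeptide, no member reached 2-fold (background 9.92%) or passed the exact test (3.67%). The largest difference there was that of H2-Q7, with a log2 fold change of 0.68, past 1.5-fold as were 24.5% of tested genes, followed by H2-Q4 with 0.53 and H2-K1 with 0.39, while Tap2 stood at 0.00. The peptides were compared in 3 pairs and each with Ctrl, 6 comparisons in all, and 1 pooled library a group does not show that those with small differences act alike.

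The direction of the small differences in FR17 depended on scaling. With TMM factors 9 of the 10 genes were below Ctrl, and with library size alone 9 were above, with a median of 0.12. That scaling also moved the median of all tested genes to 0.26, and relative to the median gene 1 of the 10 was higher in FR17 under both. In TP5 all 10 were below Ctrl under both scalings. With TMM factors, 50.1% of all tested genes were above Ctrl in TP5, 48% in sFD17 and 52.3% in FR17. Among transcripts of other cells, macrophage markers summed to less than in Ctrl in TP5 and sFD17. Relative to Ctrl their sum reached 0.754 (TP5), 0.375 (sFD17) and 1.24 (FR17), and 13, 14 and 2 of the 14 markers were lower. Epithelial markers summed to 1.48, 2.02 and 1.19 times Ctrl in the same order, and endothelial markers to 0.764, 1.10 and 1.28 times. In sFD17 the epithelial markers were mixed, with 5 of 8 above Ctrl and a median log2 fold change of 0.47, and Scgb1a1, at 16131 counts there, made up most of the sum. Of the 8 endothelial markers 1 was above Ctrl in TP5 and 5 in sFD17. Neutrophil markers stood at 1.08, 1.29 and 0.877 times Ctrl, with 14 of 15 above Ctrl in sFD17. The part of these transcripts in the differences of class I genes was not tested.

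The other genes of the pathway were read from 7 lists. Library size alone moved the median of all tested genes to −0.23 in sFD17, 0.05 in TP5 and 0.26 in FR17. Among the immunoproteasome and its PA28 activator, which produce peptides suited to class I, all 5 genes were above Ctrl in sFD17 with a median log2 fold change of 0.79, and 1 was called by both rules, where 5.32% of all tested genes were at least 2-fold higher and 1.94% were called higher by the exact test. That gene was Psme2, a PA28 subunit, with 954 counts in Ctrl, 1087 in TP5, 1567 in sFD17 and 1026 in FR17. Its log2 fold change in sFD17 was 1.07. Psmb9, whose promoter faces that of Tap1, had 1277, 1093, 1724 and 1752 counts in that order, and its log2 fold change of 0.79 in sFD17 was not called. The number of Psmb9 counts per Tap1 count was 0.452 (0.422 to 0.483) in Ctrl, 0.460 (0.427 to 0.494) in TP5, 0.347 (0.328 to 0.366) in sFD17 and 0.529 (0.499 to 0.561) in FR17. It was lowest in sFD17 and highest in FR17, each outside the counting intervals of the other libraries. In TP5 and FR17 no gene of this list was called (8.17% and 7.48% of all tested genes at 2-fold), and the medians were 0.02 and 0.23.

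Of 16 transcription factors of class I genes, 1 was called higher in sFD17 by both rules. That share is near the 5.32% of all tested genes at least 2-fold higher there, while the exact test called 1.94% higher. None of the 16 was called in TP5 or FR17. There 8.17% and 7.48% of all tested genes passed 2-fold and 1.98% and 1.86% the exact test. Stat2, a partner of IRF9 in the interferon-activated complex ISGF3, had 976 counts in Ctrl, 856 in TP5, 3112 in sFD17 and 1031 in FR17. Its log2 fold change in sFD17 was 2.03 with p = 5.15e-05 in the exact test, close in size to that of Nlrc5. Irf9 stood at 0.86 in sFD17 without being called, and at −0.07 in TP5. Factors through which NLRC5 acts had smaller log2 fold changes in sFD17, with 0.57 for Rfx5, −0.14 for Rfxap, 0.16 for Rfxank, 0.20 for Creb1, 0.20 for Nfya, 0.09 for Nfyb and −0.32 for Nfyc, none of them called. The list median was 0.30 in sFD17, −0.01 in TP5 and −0.14 in FR17.

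Of 18 other class I and class I-like heavy chain genes, 11 were tested, and 3 of them passed both calls in sFD17, against 11.8% of all tested genes at 2-fold and 4.83% by the exact test. H2-T24 rose there from 1574 counts in Ctrl to 3057, with 1557 in TP5 and 1347 in FR17, at a log2 fold change of 1.31. H2-M2 and Mr1, which encodes the molecule that presents vitamin B metabolites to MAIT cells, fell from 90 to 26 and from 121 to 36 counts. Mr1 also stood at 57 counts in TP5, a log2 fold change of −1.11 that the exact test did not call. It was past 2-fold, as were 4.99% of tested genes in that direction. The list median was close to 0 in sFD17 (0.02), and it was −0.29 in TP5 and 0.14 in FR17. Of 12 chaperones and peptide editors of the endoplasmic reticulum, Tapbpl alone was called, in sFD17, where 11.8% of all tested genes passed 2-fold and 4.83% the exact test. The chaperones of the loading complex were below Ctrl in sFD17, with log2 fold changes of −0.62 for Pdia3, −0.57 for Canx and −0.30 for Calr, none of them called. Lnpep, an aminopeptidase of endosomes, had −0.68 in FR17.

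MHC class II genes, whose products present peptides from outside the cell, stood on the other side of Ctrl from most class I members in TP5 and sFD17. All 9 were above Ctrl in TP5, where the 10 members were below, and 7 of 9 were below Ctrl in sFD17, where 9 of 10 members were above. The list medians for TP5, sFD17 and FR17 were 0.37, −0.43 and 0.23, and no gene of the list was called by either rule. In the same order 8.17%, 11.8% and 7.48% of all tested genes passed 2-fold and 1.98%, 4.83% and 1.86% the exact test. Macrophage markers, at 0.375 times Ctrl in sFD17 with 14 of 14 lower, were below Ctrl there as most class II genes were. Dendritic cell markers summed to 1.77 times Ctrl in TP5, with 7 of 8 higher, 1.10 times in sFD17 and 1.33 times in FR17. B cell markers summed to 1.44, 1.14 and 1.20 times Ctrl, with 6 of 6 higher in each, and the part of these markers in the class II values was not tested. H2-Aa, an alpha chain, had 35828 counts in Ctrl, 45295 in TP5, 18414 in sFD17 and 55818 in FR17. H2-DMb2 had the largest value of the list, a log2 fold change of 0.84 in TP5.

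**Figure D5:**
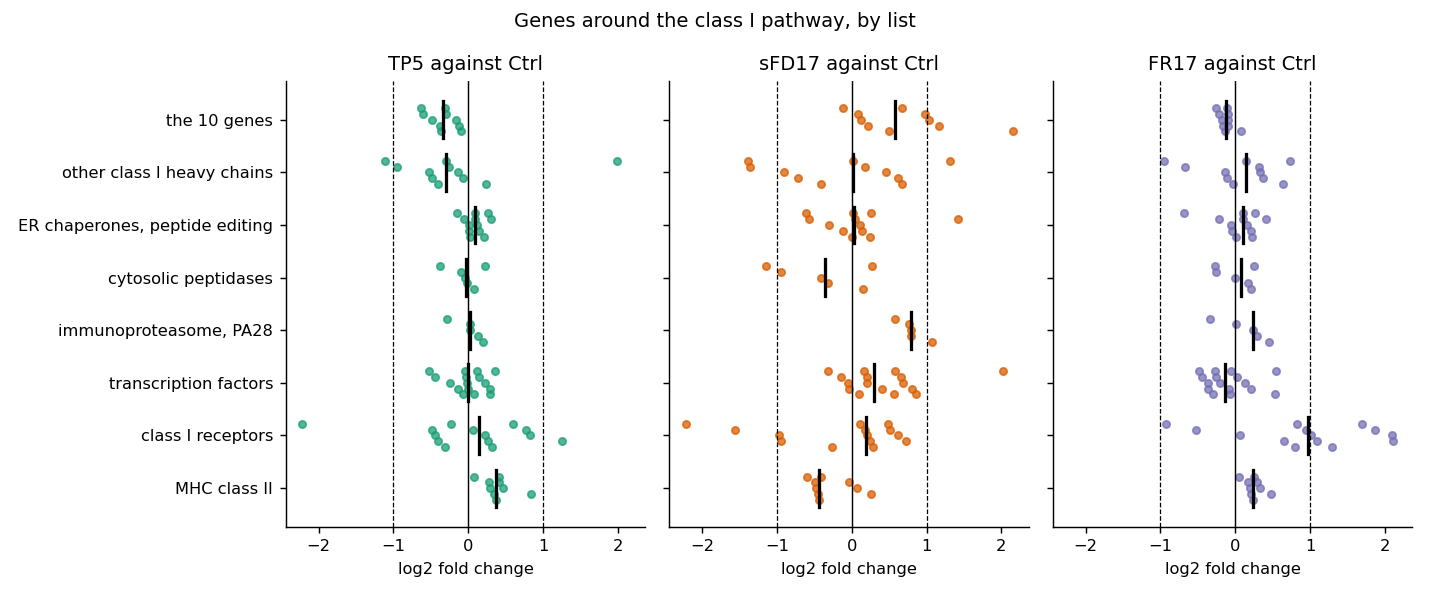
Log2 fold change against Ctrl of every tested gene of the pathway lists, one panel per peptide; points are genes, black bars are list medians and dashed lines mark a 2-fold change. The medians of the 10 genes and of the immunoproteasome list stand at 0.58 and 0.79 in sFD17, that of MHC class II at −0.43.

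The profile of the members over the 4 libraries was compared with those of 8097 other genes with at least 100 counts in every library. Likeness was the root mean square distance, in log2 CPM centred on each gene's mean, to the median profile of the 10 members. The 5 nearest genes were Tlr4, Lpp, Cdc25b, Tspo and Mvp, at distances of 0.024 to 0.055. Tlr4, the receptor of bacterial lipopolysaccharide, had 929 counts in Ctrl, 784 in TP5, 1053 in sFD17 and 1126 in FR17. Its log2 fold change was 0.54 in sFD17. Over 4 libraries many genes lie near any such profile.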

How the data were processed

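The mRNA of sorted lung MDSCs was measured in 4 libraries. The authors deposited raw counts per gene. Their processing notes name HISAT2 2.0.5, StringTie 1.3.3b, featureCounts 1.5.0-p3, edgeR 3.18.1 and GRCm38.p6, and the paper names a directional library kit. The deposited table also gives gene lengths, and 98% of the genes found in GENCODE M21 have the same exon length there. Here the 16367 genes with at least 10 counts in 1 library were scaled with TMM (edgeR 4.0.16, R 4.3.3), and log2 fold changes used a prior count of 2. The row with most counts was kept for 100 symbols on several rows, and 0 sample columns were unmapped. Without replicates the quasi-likelihood test could not be fitted. edgeR's exact test used a trended dispersion over the 4 libraries as 1 group (common biological coefficient of variation 0.267), which includes treatment differences. The procedure was tested on simulated data with a uniform biological coefficient of variation of 0.2 and changes in 1 library. That setting is simpler than these data, where the fitted coefficient ranged from 0.212 to 0.448. It does not show that the calls made here hold. All members are named, with the 3 largest changes of each of 7 pathway lists among genes with at least 50 counts. Rfx5, Rfxap, Rfxank, Creb1, Nfya, Nfyb, Nfyc, Canx, Calr, H2-Q6, H2-Q10, Pirb and Lilrb4a and the genes at 0 were named after their values were seen. Single values of some listed genes are not reported here. There were 12 marker lists. Members and lists were chosen with earlier results of these data known. Alternatives were DESeq2 1.42.0 size factors and Wald test, library size, other filters, prior counts, folds and dispersions. Biopython 1.88 aligned promoters.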

Additional observations from a re-analysis of the deposited data

How the results depend on the processing

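With 1 library a group no library could be left out of its own comparison, and no paired analysis was possible because each group holds 1 sample. Of 60 member values, 13 changed sign when scaled by library size alone, 1 with DESeq2 size factors and 0 with a prior count of 0.5. The median log2 fold change of the members against Ctrl under library size alone was 0.37 in sFD17, −0.28 in TP5 and 0.12 in FR17. It was 0.62 in sFD17 with DESeq2 size factors. Without a minimum count it was 0.55 in sFD17 and −0.052 in FR17, and with at least 10 counts in every library −0.11 in FR17. For sFD17 against TP5 it was 1.00 with DESeq2 size factors, 0.69 with library size and 0.92 without the filter. For FR17 against TP5 it was 0.32 with library size, 0.20 without the filter and 0.14 with 10 counts in every library. For FR17 against sFD17 it was −0.74 with DESeq2 size factors, −0.23 with library size, −0.58 without the filter and −0.67 with 10 counts in every library. Library size alone left 1 member past 2-fold in sFD17 against Ctrl, 2 in sFD17 against TP5 and 1 in FR17 against sFD17, where 12.9%, 14.4% and 30.5% of all tested genes were past it. Past 2-fold in sFD17 against Ctrl were 4 members with DESeq2 size factors and 2 without the filter, and in FR17 against sFD17 3 without the filter. In the same order 11.7%, 15.9% and 21.3% of all genes were past it. A fold of 1.5 gave 2 members in TP5 against Ctrl, 5 in sFD17 against Ctrl and 1 in FR17 against TP5 (20.8%, 29% and 24.5% of all).

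The exact test called 1 member, Nlrc5, in each of the 3 comparisons with sFD17 under a fixed biological coefficient of variation of 0.4 and also after Benjamini-Hochberg adjustment. In sFD17 against Ctrl, sFD17 against TP5 and FR17 against sFD17 these called 2.37%, 1.89% and 5.07% of all genes, and 0.978%, 0.513% and 2.26%. With library size it called 2 in sFD17 against TP5 (Tap1 and Nlrc5; 4.03% of all), the same 2 in sFD17 against Ctrl (4.25%) and 1 in FR17 against sFD17 (13.9%). DESeq2's Wald test called 0 in sFD17 against Ctrl (1.17% of all), 2 in sFD17 against TP5 (H2-Q4 and Tap1; 0.849%) and 0 in FR17 against sFD17 (6.95%). The cause of these differences was not tested. Leaving the sFD17 library out of scaling and dispersion, chosen after seeing the data, gave a median of −0.083 for FR17 against Ctrl and 0.17 for FR17 against TP5, and in the latter 1 member, H2-Q7, was called, with 6.64% of all genes. Every member held at least 861 counts in each library, and no value has a replicate check.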

Other observations

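Receptors that bind class I molecules were read as a list of 14 genes, and in FR17 their median log2 fold change was 0.97, with 7 genes at least 2-fold higher and 4 called higher by edgeR's exact test, against 3.91% and 0.831% of all tested genes. Klra7, a Ly49 receptor gene of NK cells, had 12 counts in Ctrl, 16 in TP5, 14 in sFD17 and 79 in FR17. Klrc1, which encodes NKG2A, the receptor of the H2-T23 product Qa-1, had 19, 14, 7 and 101 counts, and Klra8 had 34, 28, 8 and 155. Pirb and Lilrb4a, inhibitory receptors of myeloid cells, were the most abundant of the list, with 8128 and 30385 counts in Ctrl. They stood at −0.53 and −0.92 in FR17 without being called. NK cell markers rose in the same library, with 8 of 8 at least 2-fold higher and a sum of 3.00 times Ctrl, and their part in the receptor counts was not tested. The Ly49 genes resemble one another, so reads may be divided differently between them.

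Of the 6 cytosolic peptidases that trim peptides before transport, 4 were below Ctrl in sFD17 with a list median of −0.36. Of all tested genes 48% were above Ctrl there, so the count of 4 is near that of genes at large. Thop1 had 107 counts in Ctrl, 104 in TP5, 37 in sFD17 and 168 in FR17. Its log2 fold change of −1.14 in sFD17 was past 2-fold, as were 6.47% of tested genes in that direction, but was not called by the exact test. Lap3, a leucine aminopeptidase, had 360, 288, 146 and 552 counts in that order. The heavy chain genes H2-T3, H2-M1, H2-M9 and H2-M10.1 had 0 counts in every library, and the 3 counts that a count of 0 allows correspond to 0.131 to 0.227 CPM.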
